A study of Rattus norvegicus with 72 samples.

Results

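The 200 ug/m3 group at day 7 consisted of 6 rats that inhaled diesel exhaust particles, and it was set against the 6 air rats of the same day whose titles carry the letter L (air L). These 12 lungs, 1 library each, were taken by sample title from the 72 lungs of the series. All were adult male Sprague-Dawley rats, an outbred stock. The exposed rats breathed 200 ug/m3 of particle aerosol with the whole body for 6 hours a day on 4 days, the air L rats breathed filtered air in its place, and all were killed 7 days later. RNA came from a piece of each lung, so the balance of airway, alveoli, vessel and pleura can differ between pieces. What the letters stand for, and whether both groups were handled together, is not in the labels. The comparison asks which lung transcripts still differed a week after a low exposure.

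Diesel soot carries polycyclic aromatic hydrocarbons. In cells these bind the aryl hydrocarbon receptor, a transcription factor that switches on Cyp1a1 and other genes of hydrocarbon metabolism, and reactive products free the factor NRF2 to switch on antioxidant genes. Alveolar macrophages and the airway epithelium take up particles and can release chemokines that draw neutrophils into the lung. Interferons act through receptors that activate a complex of transcription factors. This complex, which holds STAT2 and IRF9, binds a promoter sequence called the interferon-stimulated response element and induces antiviral genes such as Mx1, Oas2 and Isg15, and the lung keeps a basal level of these genes without infection.

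The exposed libraries held 3575317 to 5333810 counts and the air L libraries 3471134 to 4415131, with 18248 to 19034 and 18302 to 18624 genes detected. The tissue label matched its markers: the surfactant gene Sftpc of type II cells reached 5434 to 8838 CPM (counts scaled to a common library total after TMM normalisation) in exposed lungs and 5610 to 8053 CPM in air L lungs, and Ager of type I cells 1387 to 1781 CPM in exposed and 1604 to 1861 CPM in air L lungs. Of 10 skeletal muscle genes, 1 passed the filter on low counts. 1 exposed lung, animal 076, stood apart. Between it and the other exposed libraries the chi-square per degree of freedom over genes was 7.30 to 10.003, whereas it was at most 6.32 among the other exposed libraries and 2.12 to 3.19 among air L libraries. For the lists that it moved most, counts or medians are given with and without this animal. No pair of libraries was identical.

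Across the 14331 genes tested with edgeR, 1 gene passed an adjusted p of 0.05, which is 0.00698% of the genes. It was Capzb, the beta subunit of the protein that caps the fast-growing end of actin filaments. Its level had a lowest value, median and highest value of 171, 185 and 207 CPM in the exposed lungs, against 130, 141 and 146 CPM in the air L lungs. Every exposed lung stood above every air L lung. The Capzb log2 fold change was 0.41 (SE 0.06, 95% interval 0.29 to 0.52), a 1.32-fold higher level than in air L lungs. Its adjusted p was 0.000612 by edgeR's quasi-likelihood test. Leaving out each animal in turn gave 0.37 to 0.43, with adjusted p-values of 0.000498 to 0.00545.

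**Figure D1:**
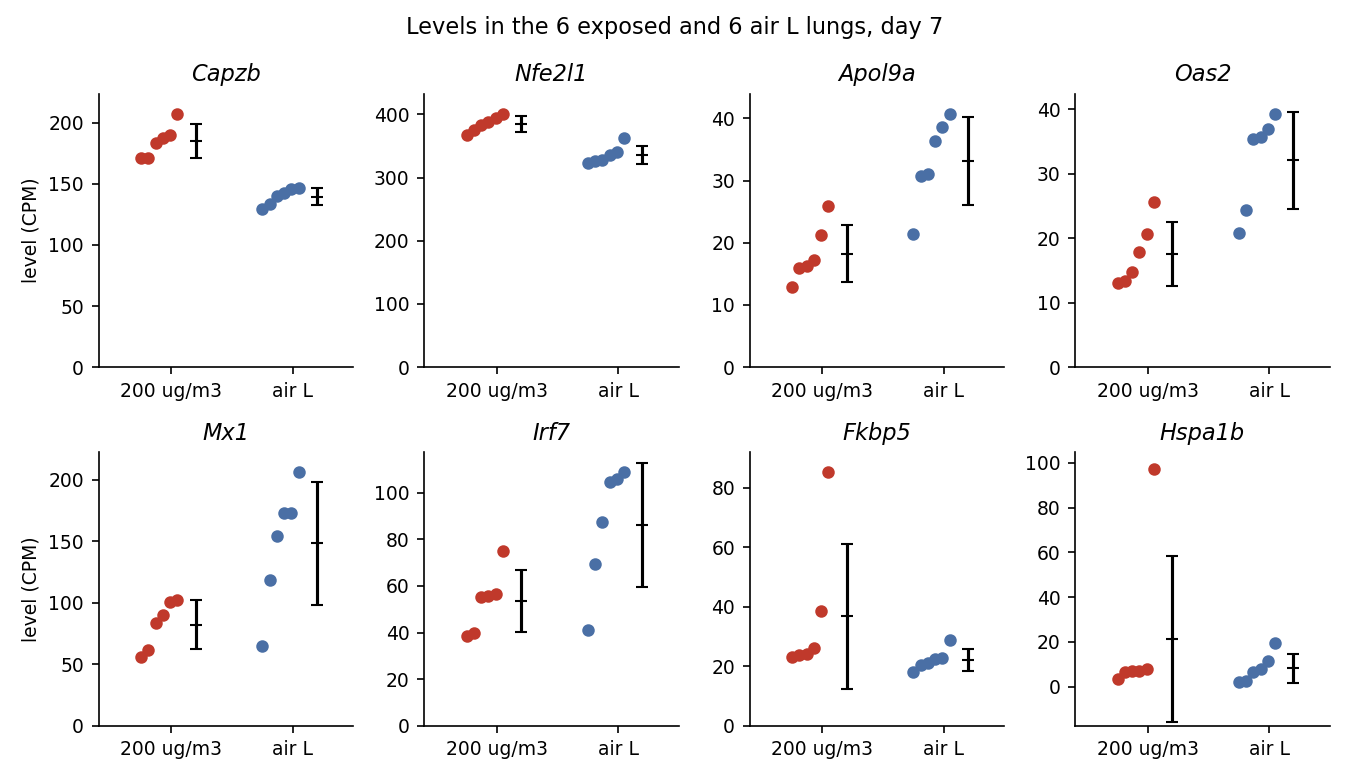
Levels (CPM, linear axes) of 8 genes in each of the 6 exposed (red) and 6 air L (blue) lungs at day 7, with the mean and SD beside the points. Capzb and Nfe2l1 separated the groups, the interferon genes Oas2, Mx1 and Irf7 lay lower in most exposed lungs with overlap, and 1 exposed lung, animal 076, lay far above the others for Fkbp5 and Hspa1b.

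The partners of Capzb gave other values. The alpha subunit genes Capza1 and Capza2 had log2 fold changes of -0.08 (SE 0.05) and -0.03 (SE 0.06). In a list of 29 actin capping and severing genes, 26 were tested, 14 had a positive and 12 a negative log2 fold change, and the median was 0.01. Besides Capzb, Tmod1, which caps the slow-growing end of the filament, reached an unadjusted p of 0.011 with a log2 fold change of 0.27 (SE 0.10). Over all genes, 50.5% had a positive sign and 5.71% an unadjusted p under 0.05, of which 3.04% were on the positive and 2.67% on the negative side.

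The Capzb difference was set beside the levels in the other groups of the series. With all 72 libraries scaled together, the 200 ug/m3 lungs of day 7 had 183 ± 13.1 CPM and the air L lungs of day 7 had 139 ± 6.77 CPM (SD, n = 6 each). That air L mean was the lowest of the 12 group means, and the other 11 lay between 160 CPM (air H, day 27) and 238 CPM (200 ug/m3, day 1). At day 7 the 1000 ug/m3 lungs had 214 ± 19.8 CPM and the air H lungs 212 ± 11 CPM (SD, n = 6 each). Between the air groups of day 7, Capzb was lower in air L than in air H by a log2 difference of -0.61 (SE 0.06), with an edgeR adjusted p of 8.1e-10. In all, 3653 genes (25.5%) differed between these air groups at an adjusted p of 0.05. When the mean of both air groups of day 7 served as the control, the Capzb value was 0.10 with an edgeR adjusted p of 0.217. Why the air L mean of day 7 was low was not tested.

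**Figure D2:**
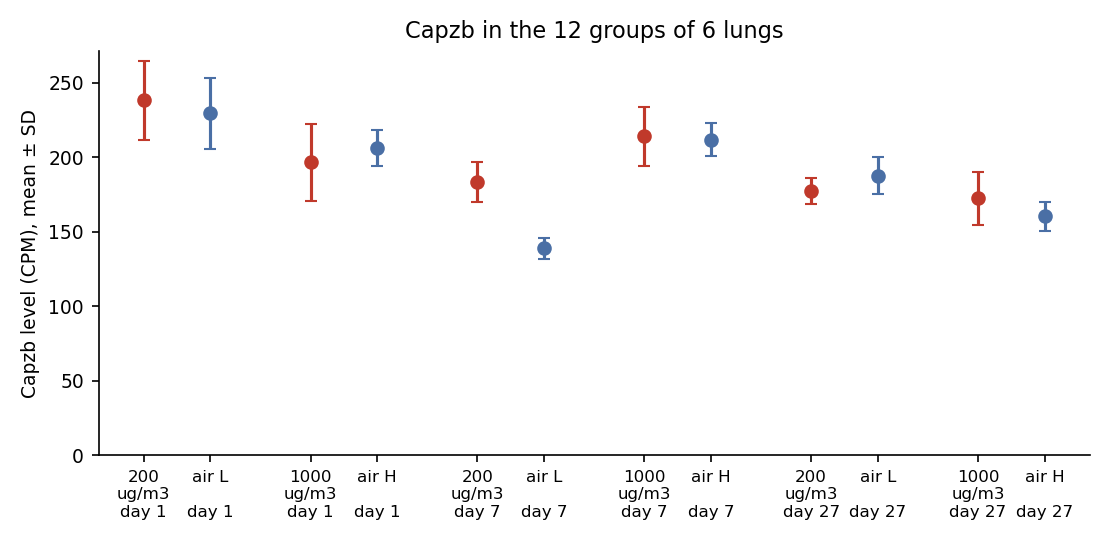
Capzb level (CPM, linear axis from 0) as mean and SD of 6 lungs in each of the 12 groups, exposed in red to the left of its air group in blue, by day and concentration. The air L group of day 7 had the lowest mean, 139 CPM, and the 200 ug/m3 group of day 7, with 183 CPM, lay among the other groups.

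The difference of the Capzb effect was tested against the other concentration and days. The log2 fold change of Capzb at day 7 was 0.05 (SE 0.06) for 1000 ug/m3 against air H, and the 200 minus 1000 ug/m3 difference of 0.36 (SE 0.08) had an edgeR adjusted p of 0.40. For 200 ug/m3 the log2 fold changes were 0.06 (SE 0.07) at day 1 and -0.07 (SE 0.07) at day 27. Day 7 exceeded day 1 by 0.36 (SE 0.10, adjusted p 0.83) and day 27 by 0.48 (SE 0.10, adjusted p 0.10) in edgeR, none of which passed the threshold.

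DESeq2, as a second tool, called 5 genes (0.0215% of the 23216 with an adjusted p). Besides Capzb these were Nfe2l1, Apol9a, RGD1359290 and Sv2c, none of which passed in edgeR. Nfe2l1 encodes NRF1, a transcription factor anchored in the endoplasmic reticulum that drives proteasome genes. Its lowest, median and highest levels were 367, 386 and 401 CPM in exposed lungs and 322, 332 and 362 CPM in air L lungs, without overlap, and its log2 fold change was 0.20 (SE 0.05). As for Capzb, the air L mean of day 7 was the lowest of the 12 group means, at 333.5 CPM with all 72 libraries scaled together, and the other 11 lay between 374 and 443 CPM, with 381 CPM in the exposed lungs of day 7. Apol9a, an apolipoprotein L gene induced by interferon in mice, had 12.9, 16.7 and 25.9 CPM in exposed lungs and 21.4, 33.7 and 40.7 CPM in air L lungs. The Apol9a log2 fold change was -0.87 (SE 0.18), and 5 of 6 exposed lungs lay below every air L lung.

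The remaining 2 genes were unevenly spread. RGD1359290 had 7.02, 8.28 and 10.9 CPM in exposed lungs, against 10.6, 42.7 and 73.7 CPM in air L lungs. Its air L levels spanned a wide range while its exposed levels did not, and the log2 fold change was -2.24 (SE 0.48). Sv2c, a synaptic vesicle protein gene, had 0.227, 3.46 and 7.45 CPM in exposed lungs, whereas 4 of 6 air L lungs had no count and the highest had 0.585 CPM. The fitted Sv2c log2 fold change of 4.50 (SE 1.04) rests on these low counts.

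The genes induced by interferon lay almost all on one side. Of the 42 genes of this list, 39 were tested. In the exposed lungs 38 of these had a negative log2 fold change, where 49.5% of all genes did, and 24 (61.5%) had a negative sign with an unadjusted p under 0.05, where 2.67% of all genes did. None passed the adjusted threshold in edgeR or DESeq2, so each gene is given as a value only. The median log2 fold change of the list was -0.32, against 0.00097 over all genes tested. Without animal 076 the counts were 38 and 28 and the median was -0.32. The members share inducers and are not independent of each other.

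Promoters of some of these genes hold a match to the core of the element through which interferon acts. The core of the interferon-stimulated response element, GAAA followed by any 2 bases and GAAA again, was searched on both strands of RefSeq promoters of the assembly GRCr8, from 250 bases before to 50 after each start. It occurred in 1034 of 27457 promoters (3.77%) and in 20 of the 29 promoters that could be matched to tested list members (69%). The 20 genes had a median log2 fold change of -0.27 and the 9 without it -0.25. A match is not evidence of binding. The list was written as genes induced by interferon, so its high share of matches is not a result of these data. The same search for a glucocorticoid response element matched 0 of 17 promoters of the glucocorticoid list, where 0.422% of all promoters matched. With so low a share over all promoters, 0 matches in 17 say nothing about that list. For the E-box, CACGTG, it matched 4 of 16 promoters of the clock list, where 6.65% of all did. The 120 bases before the start are shown, 5′ to 3′ with the matches in capitals (TTTC on either side of 2 bases where the match is on the other strand), for interferon genes with small p-values and a match in that window, and for Capzb, which has none there. They lie at chr11:78408014-78408133 (+) for Parp14, chr12:41330346-41330465 (+) for Oas1a, chr1:241527206-241527325 (+) for Ifit3, chr6:21941034-21941153 (+) for Eif2ak2, chr6:128355192-128355311 (+) for Ifi27, chr2:233910879-233910998 (+) for Gbp5 and chr5:156718801-156718920 (+) for Capzb.
Parp14: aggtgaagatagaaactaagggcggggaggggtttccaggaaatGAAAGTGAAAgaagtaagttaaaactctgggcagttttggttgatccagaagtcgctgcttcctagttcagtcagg
Oas1a: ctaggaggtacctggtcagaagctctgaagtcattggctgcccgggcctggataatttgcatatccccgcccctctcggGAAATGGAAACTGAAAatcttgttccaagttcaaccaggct
Ifit3: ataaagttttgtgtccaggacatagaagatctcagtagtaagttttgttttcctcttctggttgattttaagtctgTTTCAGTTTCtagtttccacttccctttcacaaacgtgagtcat
Eif2ak2: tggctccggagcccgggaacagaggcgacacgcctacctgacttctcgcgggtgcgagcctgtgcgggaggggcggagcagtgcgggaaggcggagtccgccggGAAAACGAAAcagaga
Ifi27: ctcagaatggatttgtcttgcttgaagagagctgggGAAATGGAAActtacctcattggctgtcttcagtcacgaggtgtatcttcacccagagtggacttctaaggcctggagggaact
Gbp5: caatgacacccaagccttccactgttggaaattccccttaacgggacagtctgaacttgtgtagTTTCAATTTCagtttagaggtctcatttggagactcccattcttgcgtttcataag
Capzb: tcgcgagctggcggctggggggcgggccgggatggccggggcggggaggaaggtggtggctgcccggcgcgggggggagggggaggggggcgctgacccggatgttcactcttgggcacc
The Oas1a promoter holds 2 overlapping matches, the first bases of which lie 41 and 35 bases before the start. The single matches of Parp14, Ifi27, Gbp5, Ifit3 and Eif2ak2 begin 76, 84, 56, 44 and 16 bases before it.

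Antiviral effectors of the list were read first. Oas2, which makes the second messenger that activates RNase L, had a lowest, median and highest level of 13, 16.3 and 25.7 CPM in exposed lungs, against 20.8, 35.5 and 39.3 CPM in air L lungs. For Mx1, a GTPase that blocks influenza virus, these levels were 55.6, 86.7 and 102 CPM in exposed lungs, against 64.7, 164 and 206 CPM in air L lungs. The log2 fold change was -0.89 (SE 0.23) for Oas2 and -0.86 (SE 0.25) for Mx1. In both cases the groups overlapped, and air L animal 068 was the lowest of its group. Ifit3, which binds viral RNA with its family members, had a log2 fold change of -0.73 (SE 0.24). Oas1a had -0.60 (SE 0.19), and Isg15, a ubiquitin-like protein, had -0.51 (SE 0.18). Eif2ak2, the kinase PKR that halts translation on double-stranded RNA, had -0.26 (SE 0.09).

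Regulators of the response were read next. Irf7, the factor that amplifies interferon production, had 38.6, 55.7 and 75.1 CPM in exposed lungs and 41, 96.0 and 109 CPM in air L lungs, a log2 fold change of -0.70 (SE 0.26). Irf9, the DNA-binding subunit of the interferon complex, had 66.8, 78.6 and 86 CPM in exposed lungs and 80.8, 99.5 and 110 CPM in air L lungs, a log2 fold change of -0.33 (SE 0.09). Stat2, another subunit, had a log2 fold change of -0.06 (SE 0.09). Usp18, which removes Isg15 from proteins and damps the receptor, had -0.75 (SE 0.24). The RNA sensors Dhx58 and Ddx58 had -0.52 (SE 0.13) and -0.31 (SE 0.10). Trim25, a ubiquitin ligase that acts on Ddx58, was the single member above 0, with 0.09 (SE 0.07).

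**Figure D3:**
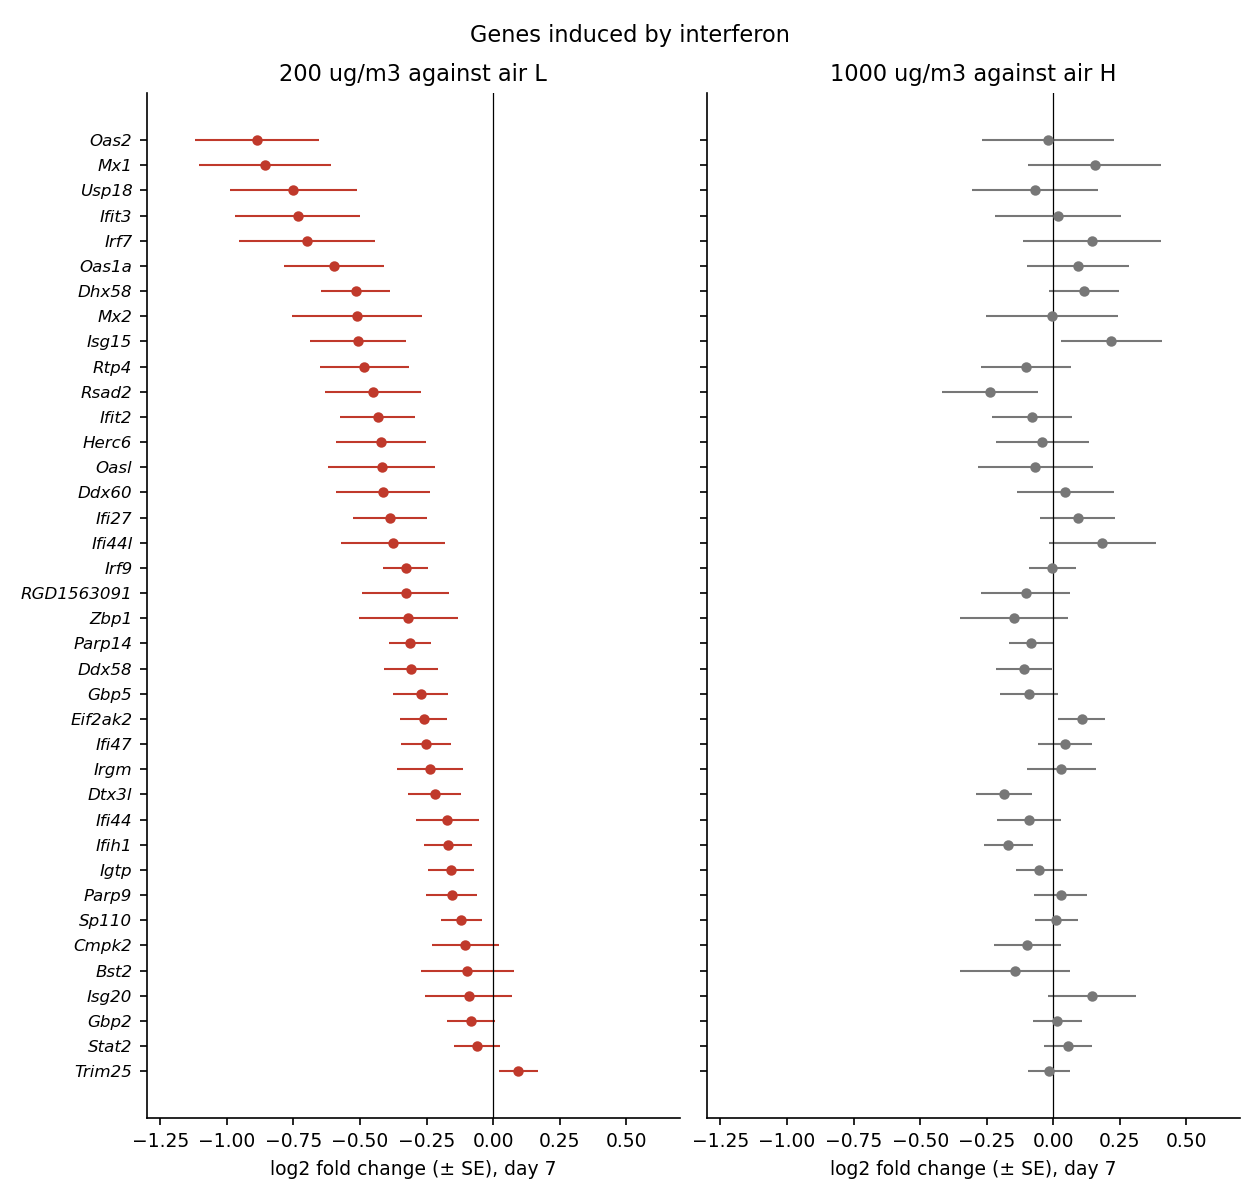
Log2 fold change with SE of 38 of the 39 tested interferon genes at day 7, sorted by the values of 200 ug/m3 against air L (left panel), and the same genes for 1000 ug/m3 against air H (right panel). On the left 37 of the genes shown lie below 0 and on the right 21 do, and the medians of the 39 genes are -0.32 and -0.01.

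Averaged over the list, the level relative to the air L mean was -0.583 to -0.0678 on the log2 scale in the 6 exposed lungs and -0.317 to 0.196 in the air L lungs. The exposed lungs with the lowest values were animals 074 and 078, and animal 073 was the highest of them, while among the air L lungs animal 068 had the value of -0.317. The groups therefore overlapped. Leaving out each of the 12 animals in turn left 37 or 38 members below 0, 18 to 30 of them with an unadjusted p under 0.05, and a median of -0.38 to -0.27. The summed level of the list was 2284 to 3172 CPM in exposed lungs and 2703 to 3860 CPM in air L lungs. Whether fewer interferon-responsive cells or less RNA per cell gave these levels cannot be told apart in pieces of whole lung.

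The same list was read in the comparisons of 1000 ug/m3 at day 7 and of 200 ug/m3 at days 1 and 27, which share no libraries with this one. For 1000 ug/m3 against air H at day 7, 21 of the 39 members had a negative log2 fold change, none had an unadjusted p under 0.05 with that sign (2.20% of all genes did), and the median was -0.01. The 200 minus 1000 ug/m3 difference was negative with an unadjusted p under 0.05 for 12 members (2.37% of all genes) and passed the adjusted threshold for none in edgeR. That difference contains the libraries of the main comparison and is not independent of it. For 200 ug/m3 at day 1, 35 of 39 were negative, 12 with an unadjusted p under 0.05 (3.91% of all genes), and the median was -0.27. At day 27, 32 were negative, 2 with an unadjusted p under 0.05 (2.55% of all genes), and the median was -0.11.

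Among the 12 groups of the series, the mean list level of the 200 ug/m3 lungs of day 7 was the lowest, -0.218 ± 0.196, and that of their air L lungs the second highest, 0.123 ± 0.198 (log2 relative to the mean of all groups, SD, n = 6 each). The air L lungs of day 1 had the highest, 0.290 ± 0.234 (SD, n = 6). The air H lungs of day 7 had 0.0197 ± 0.192 and the 1000 ug/m3 lungs of day 7 -0.0644 ± 0.276 (SD, n = 6 each), the second of these with 1 shallow library. Between the air groups of day 7 the list had a median log2 difference of 0.09 (air L minus air H), with 6 members past the adjusted threshold as higher in air L (15.2% of all genes were). With the mean of both air groups as the control, the list median was -0.24.

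Gene lists of immune cells were read beside the interferon list. Of 17 tested B cell genes 14 had a negative log2 fold change, with a median of -0.21. Of 9 tested neutrophil genes 8 did, with a median of -0.19, where 49.5% of all genes had a negative sign. With the mean of both air groups as the control, the B cell median was -0.07 and the neutrophil median -0.36. Their summed levels overlapped, with 190 to 248 CPM in exposed and 192 to 265 CPM in air L lungs for B cells, and 156 to 223 CPM in exposed and 179 to 300 CPM in air L lungs for neutrophils. Ms4a1, the B cell antigen CD20, had a log2 fold change of -0.45 (SE 0.17, unadjusted p 0.014). The neutrophil granule gene Elane had no count in any of the 12 libraries, whereas no B cell gene was at 0 in all of them. Other immune cell lists had negative signs in 13 of 18 interstitial macrophage and 8 of 14 alveolar macrophage genes. In 9 of 19 T cell and 6 of 17 natural killer cell genes the sign was negative. The part of immune cells in the interferon values was not tested.

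Genes of hydrocarbon metabolism did not pass the test. Cyp1a1, the enzyme that the aryl hydrocarbon receptor induces most, had a lowest, median and highest level of 0.907, 8.80 and 14.2 CPM in exposed lungs, against 4.68, 9.42 and 34.7 CPM in air L lungs. Its groups overlapped, with a log2 fold change of -0.74 (SE 0.58, 95% interval -1.95 to 0.48). Of 8 tested genes of the receptor list, 3 had a positive and 5 a negative sign. None of them reached an unadjusted p under 0.05, where 5.71% of all genes did. The other values were 0.01 (SE 0.18) for Cyp1b1, 0.12 (SE 0.11) for Tiparp, which feeds back on the receptor, 0.12 (SE 0.31) for Aldh3a1, -0.10 (SE 0.11) for Nqo1, -0.02 (SE 0.16) for Ugt1a6, and -0.03 (SE 0.09) and -0.10 (SE 0.06) for the receptor Ahr and its partner Arnt. Cyp1a2 had no count. Of 16 xenobiotic P450 and flavin monooxygenase genes, Cyp2b1, abundant in rat lung, had the smallest p, with 296, 325 and 334 CPM in exposed and 313, 371 and 413 CPM in air L lungs and a log2 fold change of -0.22 (SE 0.07, unadjusted p 0.0021).

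Antioxidant genes gave no call either. Of 18 NRF2 genes, 8 had a positive and 10 a negative sign, and the median was -0.04. Txnrd1, thioredoxin reductase, was the single one (5.56%) with an unadjusted p under 0.05, where 5.71% of all genes had one. It had 95.3, 106 and 112 CPM in exposed and 89, 94.2 and 103 CPM in air L lungs, with a log2 fold change of 0.16 (SE 0.06). Without animal 076, 2 of the NRF2 genes reached it with a positive sign, where 2.83% of all genes did. Hmox1, heme oxygenase, had -0.03 (SE 0.18, 95% interval -0.40 to 0.34). Gclc, which starts glutathione synthesis, had 0.02 (SE 0.08, 95% interval -0.15 to 0.18).

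Genes of inflammation and scarring likewise gave no call. Of 23 chemokine ligands 13 were tested, and the other 10, among them Cxcl2, Ccl7 and Ccl20, fell below the filter on low counts. Of 20 cytokine, alarmin and NF-kB genes 15 were tested, and Il6, Tnf, Tslp, Nos2 and Il1r2 fell below it. Genes below the filter are not covered here. Among the tested chemokine ligands 1 reached an unadjusted p under 0.05, Cx3cl1 on the negative side (-0.32, SE 0.13). None of the 15 tested cytokine, alarmin and NF-kB genes did, where 5.71% of all genes did. The neutrophil chemokine Cxcl1 had a log2 fold change of -0.11 (SE 0.26), the monocyte chemokine Ccl2 -0.21 (SE 0.32), the cytokine Il1b -0.12 (SE 0.21) and the alarmin Il33 0.04 (SE 0.06). Of 20 collagen and elastic fibre genes 18 were tested, without Col1a2 and Mfap4. Among these Col6a3 had the smallest p (0.17, SE 0.07), whereas Col1a1 had -0.25 (SE 0.22) and Col3a1 0.03 (SE 0.08). Of 23 genes of macrophage lysosomes and lipid handling, 10 had a positive and 13 a negative sign with all animals, and 12 and 11 without animal 076.

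Fabp5, a fatty acid carrier of macrophages and epithelium from that list, had 27.8, 48.2 and 61.9 CPM in exposed lungs, against 20.5, 28.7 and 37.2 CPM in air L lungs. In 5 of 6 exposed lungs it lay above every air L lung, and its log2 fold change was 0.74 (SE 0.20, unadjusted p 0.0013). At day 27 the Fabp5 value was -0.48 (SE 0.17), and the day 7 minus day 27 difference of 1.23 (SE 0.24) had an adjusted p of 0.10 in edgeR. Between the air groups of day 7, Fabp5 was lower in air L than in air H by a log2 difference of -1.35 (SE 0.20).

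Stress lists turned on animal 076. Glucocorticoids, the adrenal steroids of the stress response, induce Fkbp5, Ddit4, Zbtb16 and Tsc22d3, and damaged proteins induce heat shock chaperones. Of 19 tested glucocorticoid-responsive genes 16 had a positive log2 fold change, with a median of 0.30. Without animal 076, 9 of 19 did and the median was -0.01. Of 17 heat shock chaperone genes 14 had a positive sign, with a median of 0.16, and without animal 076 the count was 5 and the median -0.06. Of 20 immediate early genes, the first that stimulated cells transcribe, 12 were positive with all animals and 4 without animal 076. Their medians were 0.02 and -0.08.

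Single genes show how far that lung stood out. Fkbp5, a chaperone that tempers the glucocorticoid receptor, had 23.3 to 38.5 CPM in the other exposed lungs, 85.3 CPM in animal 076 and 17.9 to 29 CPM in air L lungs. Hspa1b, the inducible HSP70, had 3.6 to 7.88 CPM in the other exposed lungs, 97.1 CPM in animal 076 and 2.12 to 19.5 CPM in air L lungs. Its log2 fold change was 1.24 with animal 076 and -0.42 without. Zbtb16, a zinc finger repressor, had 231 CPM in animal 076, and its highest air L level was 91.9 CPM in animal 068. C4a, a complement gene with near-identical copies that may share reads, had 51.2 CPM in animal 076 and a log2 fold change of 1.58 with it and 0.10 without. Why this lung stood apart was not tested.

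Of the 19 glucocorticoid-responsive genes, 4 on the positive and 2 on the negative side had an unadjusted p under 0.05 (3.04% and 2.67% of all genes). Without animal 076 the counts were 2 and 0 (2.83% and 2.60% of all genes). Ddit4 and Arrdc2 stayed positive without it, Ddit4 at a lower value. Ddit4, an inhibitor of the growth kinase mTOR, had a median of 16.8 CPM in exposed and 8.12 CPM in air L lungs, with a log2 fold change of 1.17 (SE 0.41) and 0.66 without animal 076. Arrdc2, an arrestin-like gene that glucocorticoids induce, had 0.40 (SE 0.16) and 0.47 without it.

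**Figure D4:**
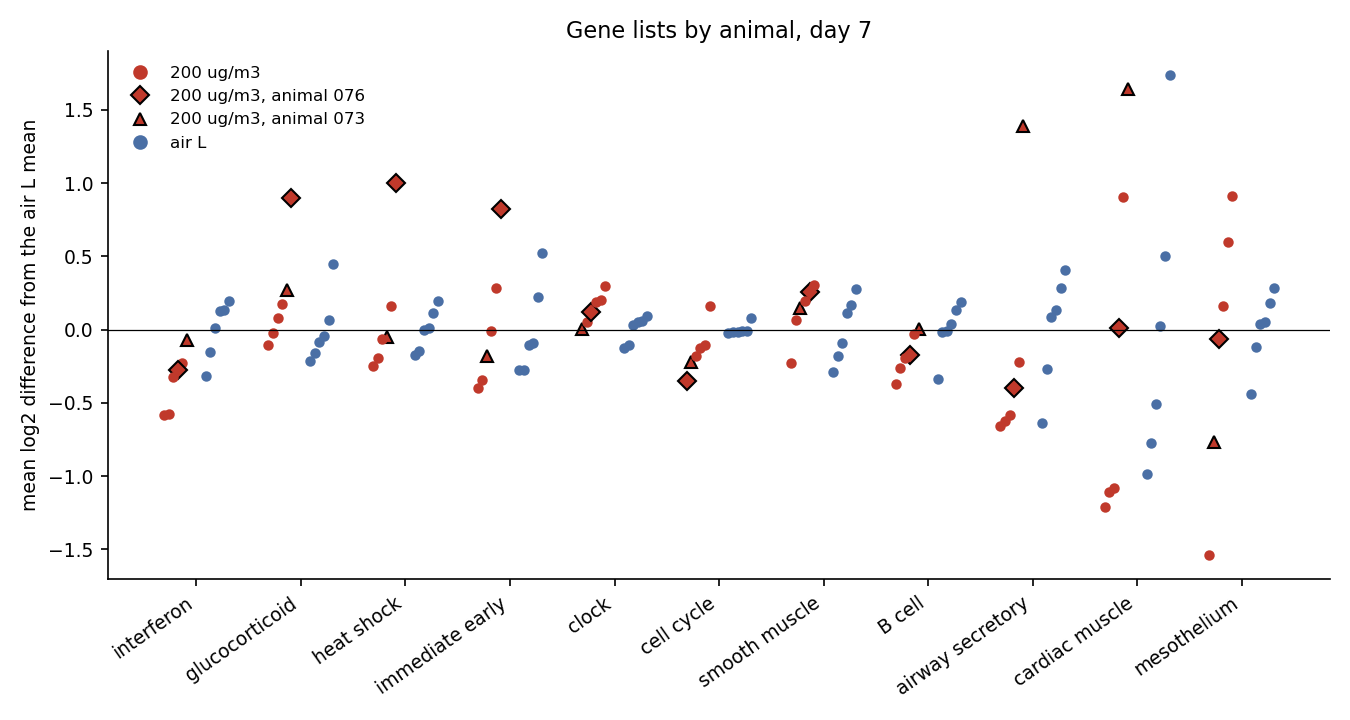
Mean log2 difference from the air L mean over 11 gene lists in each exposed (red) and air L (blue) lung at day 7. Animal 076 (diamond) lay above every other lung in the glucocorticoid, heat shock and immediate early lists, animal 073 (triangle) above every other lung in the airway secretory list, and the interferon list had 5 of 6 exposed lungs below 5 of 6 air L lungs.

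**Figure D5:**
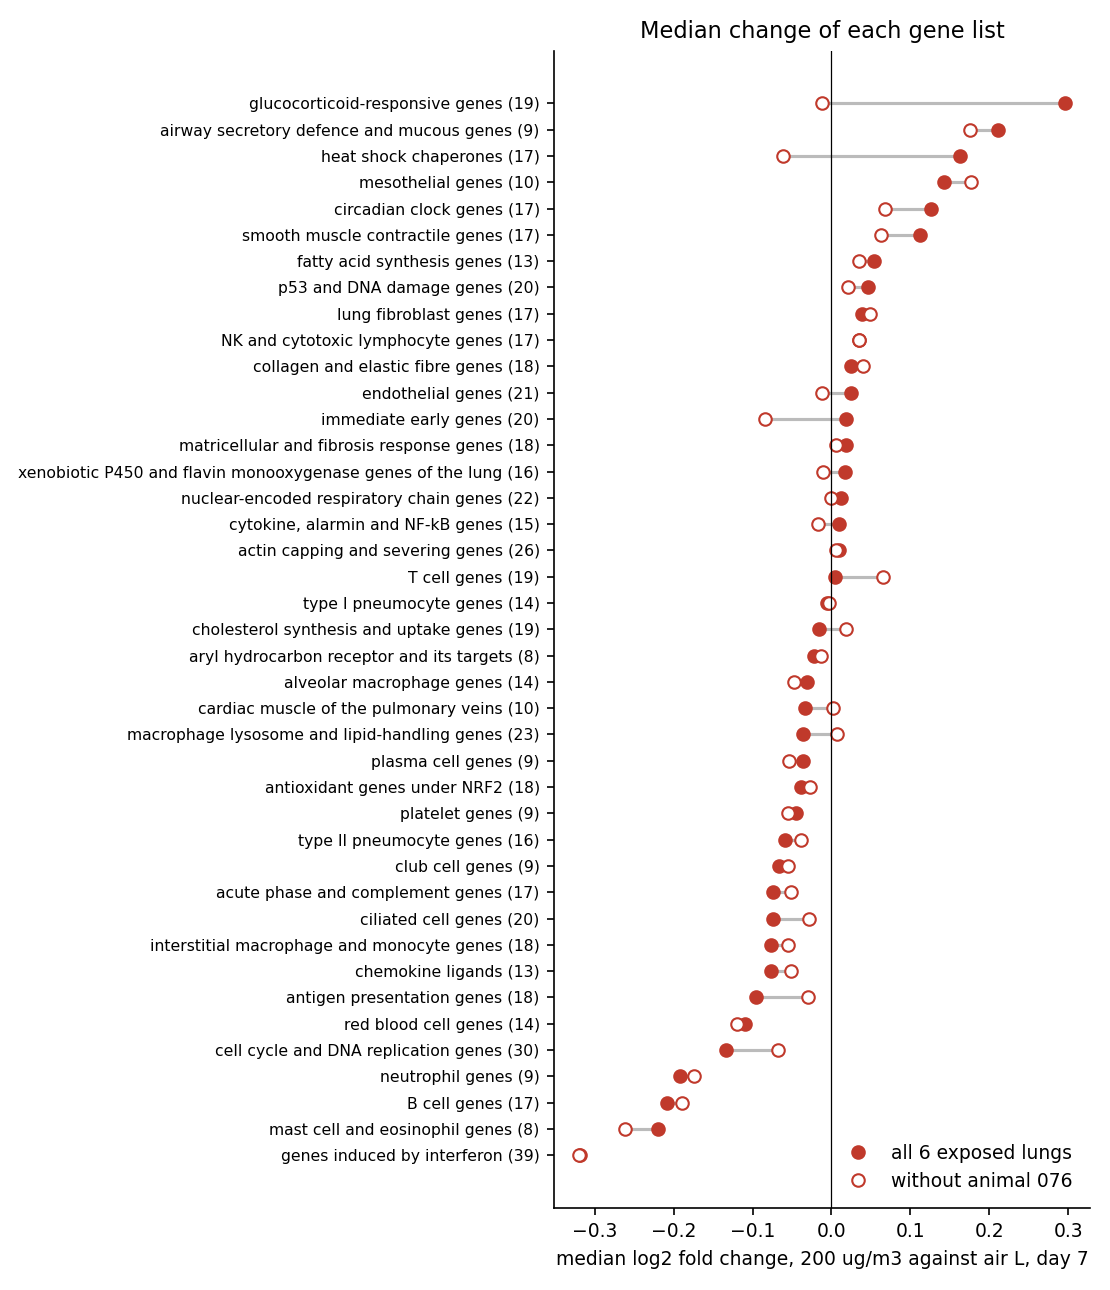
Median log2 fold change, 200 ug/m3 against air L at day 7, of each gene list with at least 8 tested genes (number in brackets), with all 6 exposed lungs (filled) and without animal 076 (open). The interferon median was -0.32 both ways, whereas the glucocorticoid median was 0.30 with and -0.01 without that animal.

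Clock genes were read because lung levels follow the time of day, which the labels do not give for killing. Nr1d1, a repressor that peaks in the rest phase of rodents, had a lowest, median and highest level of 8.53, 23.3 and 67 CPM in exposed lungs and 6.43, 13.8 and 32.8 CPM in air L lungs. Its log2 fold change was 1.02 (SE 0.45). The related Nr1d2 had 0.49 (SE 0.22), and Dbp, a target of the clock, had 0.56 (SE 0.26), while Arntl, which runs in antiphase to them, had -0.14 (SE 0.10). Of 17 clock genes, 3 had a positive sign with an unadjusted p under 0.05 with all animals and 6 without animal 076, where 2.83% of all genes did. The part of the time of killing in any result was not tested.

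Antigen presentation genes of the major histocompatibility complex varied between animals of this outbred stock, and its members may share reads. RT1-S2 had a lowest, median and highest level of 0.219, 0.827 and 7.04 CPM in exposed lungs, against 7.61, 8.31 and 12.3 CPM in air L lungs, without overlap. Its log2 fold change was -1.88 (SE 0.61), and it is named for its lack of overlap, not being one of the 18 antigen presentation genes of the list. RT1-A2, a class I gene, had 36.2, 82.4 and 153 CPM in exposed and 37.2, 43.4 and 59.6 CPM in air L lungs, a log2 fold change of 0.90 (SE 0.33). The class II genes RT1-Ba and RT1-Bb had -0.74 (SE 0.30) and -0.65 (SE 0.24), and Tap1, which carries peptides to class I molecules, -0.33 (SE 0.12). Of 18 genes of the list, 15 had a negative sign with all animals and 10 without animal 076. Their medians were -0.10 and -0.03.

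Cell cycle genes had mostly negative signs. Of 30 tested, 22 had a negative sign, where 49.5% of all genes did, and the median was -0.13. On that side 5 (16.7%) had an unadjusted p under 0.05 (Top2a, Cdc20, Bub1, Mcm5 and E2f1), where 2.67% of all genes did. Without air L animal 065, which lay far above the other air L lungs in this list, the median was -0.09. Top2a, the topoisomerase of dividing cells, had 25.7, 31.4 and 40.5 CPM in exposed and 32.9, 37.2 and 43.9 CPM in air L lungs, a log2 fold change of -0.24 (SE 0.10). Without animal 076, 21 had a negative sign, 2 with an unadjusted p under 0.05, where 2.60% of all genes did, and the median was -0.07. Of 17 tested smooth muscle genes 13 had a positive sign, where 50.5% of all genes did, and the median was 0.11. On that side 4 (23.5%) had an unadjusted p under 0.05 (Myh11, Tagln, Lmod1 and Tpm2), where 3.04% of all genes did. Without animal 076, 12 of the 17 still had a positive sign and the median was 0.06. None of them reached that p on the positive side then, where 2.83% of all genes did.

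Of 19 tested T cell genes 10 had a positive and 9 a negative sign with all animals, and 12 and 7 without animal 076. Icos, a costimulator of activated T cells, had 4.38, 5.56 and 8.53 CPM in exposed lungs and 2.65, 3.65 and 4.82 CPM in air L lungs, and Cd3g, a chain of the T cell receptor complex, had 2.13, 4.03 and 5.88 CPM in exposed and 1.78, 2.72 and 3.18 CPM in air L lungs. For both, 5 of 6 exposed lungs lay above every air L lung. Their log2 fold changes were 0.65 (SE 0.21) and 0.61 (SE 0.22). Alveolar macrophage genes had 6 positive and 8 negative signs, type II cell genes 5 and 11, and endothelial genes 14 and 7 with all animals and 7 and 14 without animal 076.

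The spread between lungs was wider in the exposed group. The median SD of log2 CPM within the group was 0.201 in exposed and 0.160 in air L lungs, and 65.4% of genes had the larger SD in the exposed group. Without animal 076 the exposed median was 0.162 and the share 51.8%. Mesothelial genes, which come from the pleura, kept a median SD of 1.14 in exposed and 0.276 in air L lungs, and all 10 tested had the larger SD in exposed lungs with and without that animal. Airway secretory genes were high in exposed animal 073. The airway mucin Muc5b had 211 CPM there, at most 17.5 CPM in the other exposed lungs and 11 to 38.1 CPM in air L lungs. Myh6, a myosin of the heart muscle that sleeves rat pulmonary veins, spanned 0.379 to 78.9 CPM in exposed and 0.585 to 93.1 CPM in air L lungs.

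Apart from Capzb, the genes with the smallest p-values came from several processes on the higher side and included interferon genes on the lower. On the higher side these were Tesc (1.14, SE 0.26), a calcium-binding regulator of proton exchange, Hmgb2 (0.47, SE 0.11), a chromatin protein, Sec63 (0.25, SE 0.06) of protein entry into the endoplasmic reticulum, Klc1 (0.25, SE 0.06), a kinesin light chain, Cyth1 (0.23, SE 0.06), Got1 (0.39, SE 0.10), the cytosolic aspartate aminotransferase, Anp32b (0.36, SE 0.10) and Atl2 (0.25, SE 0.07), as log2 fold changes. On the lower side, beside Apol9a and 4 genes of the interferon list (Dhx58, Parp14, Irf9 and Oas2), they were Zc3h11a (-0.44, SE 0.09), a factor of RNA export, Lgals3bp (-0.42, SE 0.10), a secreted glycoprotein, Sema4d (-0.44, SE 0.12), Olr1584 (-0.76, SE 0.21) and Acd (-0.41, SE 0.11), a telomere protein. Their adjusted p-values were at least 0.266 in edgeR.

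Levels did not overlap between the groups for 35 genes that were higher (0.244% of those tested) and 26 that were lower (0.181%) in exposed lungs. Among the 5 with the largest fold change on each side, Hmgb2 had 19, 23.4 and 25.9 CPM in exposed lungs and 13.7, 16.8 and 17.7 CPM in air L lungs. Kcnip3, a calcium sensor, had a log2 fold change of 0.49 (SE 0.13), Gpsm2, which orients the spindle, 0.50 (SE 0.16), and Spock3, a matrix proteoglycan, 0.68 (SE 0.22). On the lower side, beside RT1-S2 and Acd, Samd10 had -0.60 (SE 0.18), Gpsm3, a regulator of G proteins in leukocytes, -0.56 (SE 0.16), and Mcmdc2, a meiosis gene, -0.48 (SE 0.20).

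The spread between lungs sets the width of the intervals. The median SE was 0.112 on the log2 scale. For 95.6% of the genes the 95% interval excluded a change of 2-fold, and for 80.1% one of 1.5-fold. These are unadjusted intervals of single genes. They do not give the share of such changes that would pass the adjusted threshold.

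The 200 ug/m3 effect of day 7 was also set against the effect at the other concentration and days. Its difference from 1000 ug/m3 at day 7 passed in edgeR for 0 of 14331 genes. Unadjusted, 747 (5.21%) had a p under 0.05, and DESeq2 called 1 (0.00431%), Sv2c. The genes with the smallest p were Capzb, Sec63 and Anp32b on the positive side and Cyp2b1, Fxyd5 and C5ar2 on the negative side. Anp32b, a histone chaperone, had log2 fold changes of 0.36 (SE 0.10) at 200 ug/m3 and -0.39 at 1000 ug/m3, with a difference of 0.75 (SE 0.15, adjusted p 0.218).

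The difference from day 1 passed for 0 of 14558 genes in edgeR and for 0 in DESeq2 (0%), while 727 (4.99%) had an unadjusted p under 0.05 in edgeR. Samd10 was among the 6 genes with the smallest p, beside Hmgxb4, Ascc2, Lilrb3l, Stub1 and Jmjd8. The difference from day 27 passed for 0 genes in edgeR, where 1057 (7.26%) had an unadjusted p under 0.05. DESeq2 called 12 (0.141%), among them Capzb, Fabp5, Jup, Atl2, Ssh1 and Klc1. Jup, plakoglobin of cell junctions, had a log2 fold change of -0.18 (SE 0.07) at day 7 and 0.29 at day 27. The day 1 libraries in that fit were shallower, with 1232287 to 1601609 counts in exposed and 1288275 to 1691413 in air L lungs, so day and depth cannot be told apart there.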

How the data were processed

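The authors deposited 1 table of read counts for 30042 gene symbols in 72 libraries. Per the labels' protocols, ribosomal RNA was depleted before strand-marking library preparation. Per the submitters' processing notes, the build was Rnor_6.0, and the tools were HISAT2 2.1.0, HTSeq 0.6.1, SAMtools 1.8, Trimmomatic 0.35 and bcl2fastq 2.19, without roles. How strand was set in counting is not given in the sources used here, so antisense, overlapping and duplicated genes may share reads.

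Groups came from sample titles. The 24 libraries of day 7 were fitted together in edgeR 4.0.16 (R 4.3.3), with 1 mean per group, TMM scaling, genes kept by filterByExpr and robust quasi-likelihood tests. P-values are two-sided, Benjamini-Hochberg adjusted over all genes tested, with a threshold of 0.05. Differences between days came from the 36 libraries of L animals. SEs came from the F statistic. Each library is 1 animal, so p-values set a difference against the spread between animals' lung pieces, estimated over all libraries of the fit. They do not cover differences in handling between groups. DESeq2 1.42.0, limma 3.58.1 (voom), other scalings, filters, sample sets and controls, a fold limit, and leaving out each animal were alternatives. The fit was tested on simulated counts. Summaries used Python 3.11.15.

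The comparison and 45 gene lists of 808 distinct genes were chosen with earlier results of these data known. The genes named are those called by either tool, the 10 higher and 10 lower with the smallest p, the 5 each way with the largest fold among genes without overlap, members of the lists described with the smallest p, and 3 each way for every difference tested. Symbols that are identifiers and genes under a mean log2 CPM of 2 were passed over. Of the 10 most variable genes Myh6 is described. Further list members were named for their role after their values were seen. Promoters are from RefSeq, assembly GRCr8. 1 member of the interferon list enters its counts and is not reported by itself here.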

Additional observations from a re-analysis of the deposited data

Results flagged for a closer look

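In groups of 6 lungs, 19 of 146 sets of values (29 named genes and 44 gene lists, each in the exposed and the air L group) had 1 lung that lay far from the other 5, by the gap to its nearest neighbour over the whole range. Independent, normally distributed values would give about 1 in 20. These sets share the same 12 lungs, and some genes were named for their values, so that rate is no test of the count. Lists are given as the mean log2 difference from the air L mean.

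Exposed animal 076 was the outlying lung for 5 of them. Its Sec63 level was 280.0 CPM, against 199 to 222 CPM in the other exposed lungs. Its glucocorticoid list stood at 0.902 (others -0.104 to 0.271), its heat shock list at 1.0 (others -0.248 to 0.164), its endothelial list at 0.144 (others -0.0537 to 0.0162) and its p53 list at 0.104 (others 0.0277 to 0.0553). The cause was not tested.

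Among the other exposed lungs, animal 073 had 1.39 in the airway secretory list (others -0.656 to -0.22), animal 074 had 0.216 in the type II cell list (others -0.208 to -0.0869) and animal 075 had -0.399 in the aryl hydrocarbon receptor list (others -0.0785 to 0.041).

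Air L animal 068 was the outlying lung for 5. It had 2.93 CPM of Tesc (others 1.34 to 1.88), -0.117 in the acute phase list, 0.176 in the collagen list, -0.247 in the lysosome list and -0.125 in the alveolar macrophage list. It was also the lowest air L lung in the interferon list, at -0.317. Air L animal 069 had 13.7 CPM of Hmgb2 (others 16.3 to 17.7), -0.297 in the T cell list and -0.378 in the red blood cell list. Air L animal 065 had 14.2 CPM of Samd10 (others 6.96 to 8.48) and 0.0786 in the cell cycle list, and air L animal 070 had -0.0954 in the fibroblast list.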

How the results depend on the processing

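Capzb was the single gene called under RLE factors, no scaling factors, both other filters on low counts, limma-voom, fits of the 12 or 36 libraries alone, and without the shallow 1000 ug/m3 library. With the mean of air L and air H as control, 1184 genes were called (935 higher, 249 lower), and Capzb, at 0.10, was not. An added fold limit of 1.5, a stricter test by construction, left 0 calls, with Capzb at 0.41. DESeq2 called 5 genes, and it called 1 for the difference between concentrations and 12 for that between day 7 and day 27. Leaving out 1 animal gave 1 or 2 calls: Apol9a was added without air L animal 068 (-0.97) and Sema4d without exposed animal 073 (-0.58), with Capzb at 0.37 to 0.43. The cause of the other counts was not tested. For 42 lists with at least 5 tested genes, 834 medians under an alternative moved by less than the SD between lungs and 6 by more. With the mean of both air groups as control, the actin capping (0.06), type I cell (0.09), neutrophil (-0.36) and eosinophil and mast cell (0.15) medians moved by more. The glucocorticoid median did so without exposed animal 076, at -0.01. No paired analysis was possible because no label pairs an exposed with an air animal. Depth limits genes of a few CPM, such as Sv2c.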

Other observations

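The remaining gene lists gave no adjusted call in exposed against air L lungs at day 7. Some had mostly negative or mostly positive signs, and others were near an even split. Among epithelial markers, 6 of 20 genes of ciliated cells had a positive sign (median log2 fold change -0.07), 2 of 9 of club cells (-0.07), 6 of 14 of type I cells (-0.01) and 3 of 4 of neuroendocrine cells (0.07). In connective tissue and muscle the counts were 11 of 17 for fibroblasts (0.04), 3 of 4 for adipocytes (0.27), 4 of 10 for heart muscle (-0.03) and 1 of 1 for skeletal muscle (0.04). The heart muscle median was between -0.67 (without exposed animal 073) and 0.53 (without air L animal 070) when 1 lung was left out. Among blood and immune cells, genes of erythroid cells were positive in 3 of 14 (-0.11), of platelets in 3 of 9 (-0.04), of interstitial macrophages in 5 of 18 (-0.08) and of eosinophils and mast cells in 3 of 8 (-0.22). The eosinophil and mast cell median was 0.09 without air L animal 070 and 0.15 with the mean of both air groups as the control. Natural killer cell genes had 11 of 17 positive signs (0.03), plasma cell genes 3 of 9 (-0.04) and thymus or lymph node genes 4 of 5 (0.01). Among pathways, acute phase genes were positive in 5 of 17 (-0.07), p53 targets in 13 of 20 (0.05), cholesterol synthesis genes in 8 of 19 (-0.02), fatty acid genes in 10 of 13 (0.05), matricellular genes in 11 of 18 (0.02) and respiratory chain genes in 13 of 22 (0.01). Without exposed animal 076, 12 of 19 cholesterol synthesis genes were positive (0.02), 12 of 20 p53 targets (0.02), 8 of 20 ciliated cell genes (-0.03) and 2 of 4 neuroendocrine genes (-0.0044). Over all genes tested, 50.5% had a positive sign.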
